A study of Mus musculus with 9 samples.

Results

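The 9 core circadian clock genes described here are Arntl, Clock, Cry1, Per1, Per2, Nr1d1, Nr1d2, Dbp and Ciart, taken by gene symbol from a table of 56748 genes. All 9 were found once each and all 9 passed the filter on low counts that left 13042 genes for testing. The table holds raw read counts of poly(A) RNA from bulk liver, 1 library per column. The mice were C57BL/6J males, 28 weeks old, kept on high-fat food for 20 weeks since they were 8 weeks old. In the last 4 weeks, 5 mice received formoterol (1 mg/kg by daily intraperitoneal injection), a long-acting beta-adrenergic agonist, and 4 received its vehicle, DMSO. Both groups ate the high-fat diet, and no group on another diet was used here. Group membership was read from the column suffix (HF, 5 columns, formoterol; HD, 4 columns, vehicle), together with the group sizes that the design text gives, and the direction of each difference rests on that reading. These genes cycle over the day, and the hour of collection is not in the labels used here.

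The mammalian clock is a transcriptional feedback loop that runs in nearly every cell, hepatocytes included. The proteins CLOCK and ARNTL (also called BMAL1) bind E-boxes as a pair and switch on the Per, Cry, Nr1d and Dbp genes. PER and CRY proteins return to block the pair, while the nuclear receptors NR1D1 and NR1D2 (REV-ERB alpha and beta) repress Arntl. In liver the loop is set by feeding as well as by signals from the brain, and it gates bile acid, lipid and glucose metabolism.

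Nr1d1 was the only clock gene of the 9 whose groups did not overlap. Its normalised read count was 20.7 ± 6.51 CPM (counts scaled to a common library size; SD, n = 5) in formoterol livers against 46.5 ± 8.63 (SD, n = 4) in vehicle livers, 2.24-fold lower, and no formoterol library reached the lowest vehicle library. Cry1, a repressor of the loop, pointed the other way at 8.15 ± 2.26 CPM against 4.79 ± 1.81. In Cry1 and the other 7 genes the groups overlapped, and Nr1d2 and Per2 had nearly equal means. No clock gene passed the test across all genes with 9 libraries (edgeR's quasi-likelihood test, Benjamini-Hochberg adjusted p under 0.05, which called 0.0% of all genes tested; smallest adjusted p of any gene 0.136). By DESeq2 1 of the 9 passed, Nr1d1, where 2.79% of the genes with an adjusted p did.

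Of the 9 genes, 7 had a negative and 2 a positive log2 fold change (formoterol minus vehicle), against 51.3% negative and 48.7% positive over all genes tested. Their median log2 fold change was −0.27, and that of all genes tested was −0.014. At an unadjusted p under 0.05 there were 3, with Cry1 higher and Nr1d1 and Ciart lower, where 14.6% of all genes reached that level (9.03% higher and 5.53% lower). The 9 genes were chosen with earlier results of these data known. In 1 of the 9 the groups did not overlap, formoterol being lower, and this was the case for 4.84% of all genes (2.38% with formoterol lower). With 1 library left out, 2 to 4 of the 9 reached an unadjusted p under 0.05. All genes did so in 11%, 11.8%, 10.9%, 23.4% and 17.7% without M46, M47, M48, M49 and M50, and in 9.05%, 12.3%, 10.2% and 13.6% without M56, M58, M59 and M60. Limma-voom put 3 of the 9 at that level, Nr1d1, Cry1 and Clock (15.6% of all genes). With sample quality weights there were 4, these 3 and Dbp (28.4%). Ciart was not among them in either setting.

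**Figure D1:**
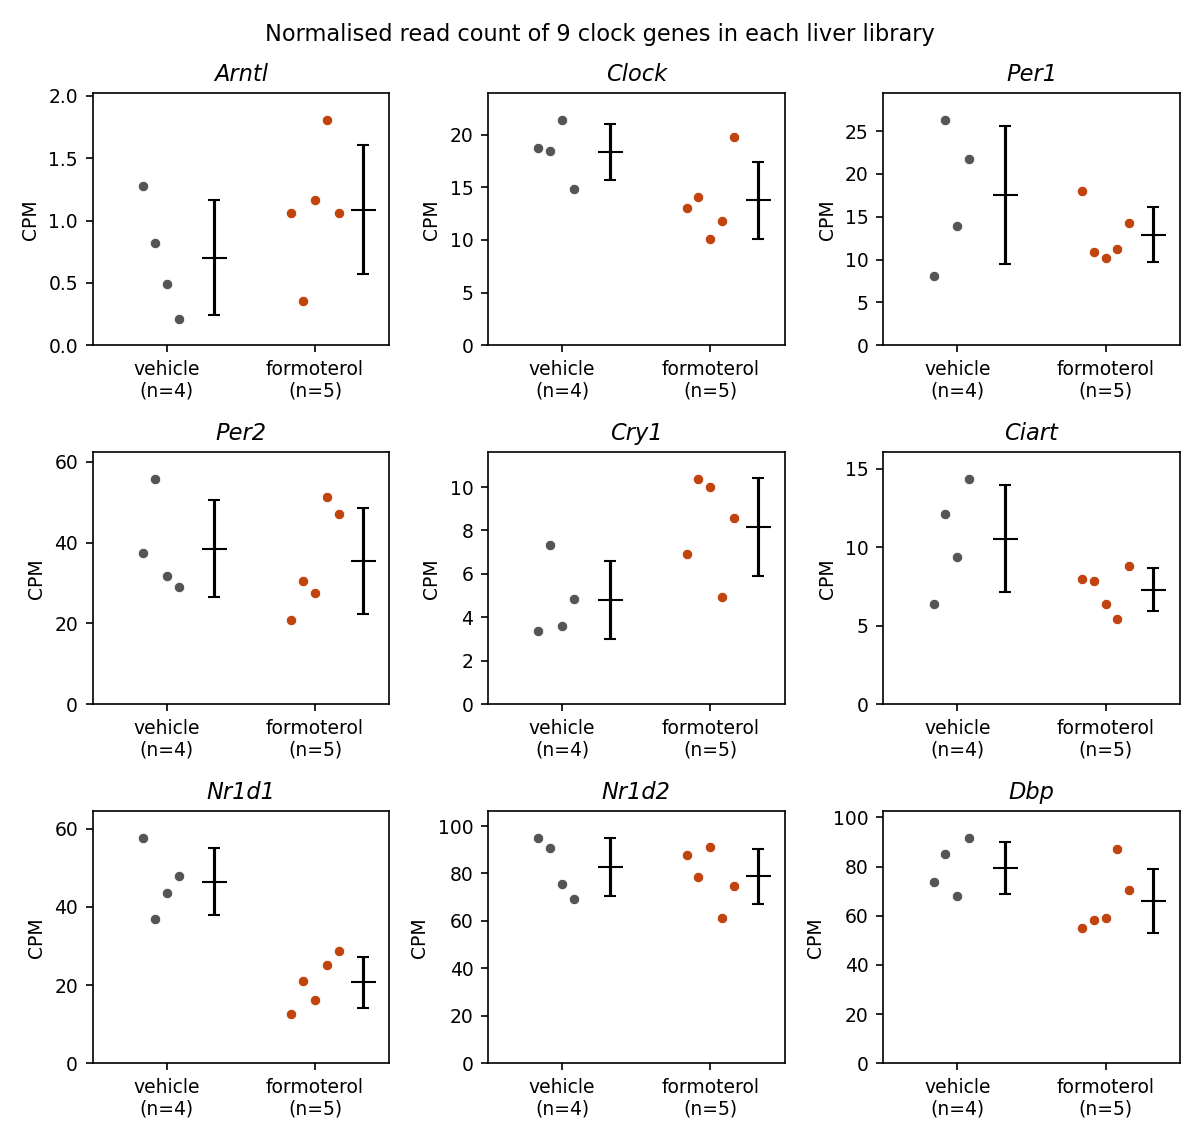
Normalised read count (CPM, y axis from 0) of each clock gene in the 4 vehicle libraries (grey) and the 5 formoterol libraries (orange); each point is 1 library, and the bar beside it is mean ± SD. In Nr1d1 the formoterol points lie between 12.5 and 28.6 CPM, all under the lowest vehicle point at 36.9, while the groups of the other 8 genes overlap.

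Libraries held 12336665 to 20339665 counts, and the totals of the groups differed by less than the spread within them (two-sided exact permutation p = 0.81). Genes of the mitochondrial genome took 16.4% (M46) to 38.6% (M50) of the counts of a library. Their mean share was 24.1% with formoterol and 28.9% with vehicle (two-sided exact permutation p = 0.357). The part of this share in the clock gene differences was not tested. Formoterol library M49 weighs on the counts of calls: edgeR called 702 genes without it, 4 without vehicle library M60 (0.0303% of genes), and 0 without any other library. The defining hepatocyte markers (8 of 8 tested, 5 with a positive log2 fold change) were abundant in each library, and their summed level was 97664 to 135580 CPM in formoterol and 82205 to 94714 CPM in vehicle libraries, without overlap. Most of that sum is Alb (85075 ± 13035 against 66918 ± 4634 CPM), whose own groups overlapped. Apoa1, Serpina1c and Cps1 were higher at an unadjusted edgeR p under 0.05 (log2 fold changes 0.83, 0.93 and 0.57), where 9.03% of all genes were. The groups of Apoa1 did not overlap, as in 2.45% of all genes with formoterol higher. Apob, Tat and Hnf4a had negative log2 fold changes (−0.20, −0.073 and −0.098), and 0 of the 8 were lower at that level. Endothelial markers (7 of 7 tested, all with a negative log2 fold change) summed to 29.1 to 92.2 CPM against 83.1 to 103.2, stellate cell and fibroblast markers (7 of 7 tested, all negative) to 72.5 to 353 against 221 to 385, and macrophage and Kupffer cell markers (7 of 7 tested, 5 negative) to 36.2 to 88.5 against 50.4 to 84.8. Cholangiocyte, erythroid, and B and plasma cell sums overlapped between the groups. T and NK cell genes summed to at most 2.63 CPM and neutrophil genes to at most 1.22 CPM, with Ly6g at 0. Adipocyte and mesothelial genes summed to 21.2 to 107 CPM against 7.41 to 20.0 CPM, without overlap. Of these 5 only Cfd was tested (75.4 ± 32.6 against 11.7 ± 5.89 CPM), while Plin1 had 0 counts in every library. In bulk RNA, fewer cells of a type and less RNA per cell cannot be told apart, and the part of these cell type markers in the clock gene differences was not tested.

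Nr1d1 (ENSMUSG00000020889; mm39 chromosome 11, 98658758 to 98666159, minus strand) encodes REV-ERB alpha, a haem-binding receptor that represses transcription and ties the clock to lipid metabolism. The formoterol libraries M46, M47, M48, M49 and M50 had 12.5, 21.1, 16.3, 25.1 and 28.6 CPM of Nr1d1. The vehicle libraries M56, M58, M59 and M60 had 57.5, 36.9, 43.6 and 47.9 CPM. The highest formoterol library, M50, was thus below the lowest vehicle library, M58, and M49 lay inside the formoterol range here. On the log2 scale the difference was −1.16 (SE 0.22, 95% interval −1.63 to −0.70; edgeR adjusted p = 0.151, DESeq2 adjusted p = 0.000739). Its unadjusted p was the 7th smallest of all genes tested. Leaving out 1 library at a time gave log2 fold changes from −1.32 to −1.04 and edgeR adjusted p from 0.00987 to 0.477, and Nr1d1 was called only without M49 (−1.25, adjusted p = 0.00987, where 5.51% of genes were called). Between 154 and 988 reads per library stand behind these values.

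Nr1d1 shares 1075 bp with Thra, the gene of thyroid hormone receptor alpha, on the opposite strand, and the strand setting of the counting is not given in the sources used here, so reads of the overlap cannot be assigned with certainty. Thra itself had 6.21 ± 1.85 CPM with formoterol and 8.79 ± 1.15 CPM with vehicle, a log2 difference of −0.49 (SE 0.23) that did not pass (edgeR adjusted p = 0.347). The part of the shared stretch in the Nr1d1 difference was not tested.

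The promoter of Nr1d1 is shown because this gene had the widest separation. RefSeq promoter windows (250 bases before to 50 after a start site, GRCm38.p6, a build other than that of the counts) were found for 8 of the 9 genes, 12 windows in all, and Per2 had no entry. They were searched on both strands for the E-box CACGTG, a variant E-box CACGTT, the REV-ERB element core TAGGTCA, the D-box TTANGTAA, the cAMP response element TGACGTCA and its shorter form TGACGT, which lies within it. None of these motifs stood in any window of Clock, Dbp or Nr1d2 or in 1 of the Arntl windows. The Nr1d1 window (chr11:98775328-98775627, minus strand) held 1 variant E-box, in capitals on the reverse strand, 28 bases before the start, and 4.68% of the 32851 windows in the reference table held that motif.
Nr1d1: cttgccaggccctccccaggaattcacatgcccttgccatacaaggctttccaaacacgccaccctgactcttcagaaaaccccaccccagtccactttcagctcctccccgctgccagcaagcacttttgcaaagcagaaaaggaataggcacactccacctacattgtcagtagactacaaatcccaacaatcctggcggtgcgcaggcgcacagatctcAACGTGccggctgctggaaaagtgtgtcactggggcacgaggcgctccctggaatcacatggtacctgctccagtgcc

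Nr1d2 (ENSMUSG00000021775; mm39 chromosome 14, 4230569 to 4265642, plus strand) encodes REV-ERB beta, the close relative that shares the DNA element of Nr1d1. It had 87.6, 78.5, 91.2, 61.4 and 74.8 CPM in M46 to M50 and 94.8, 90.9, 75.7 and 69.2 CPM in M56, M58, M59 and M60. The ranges overlapped almost fully. Its log2 fold change was −0.070 (SE 0.16, 95% interval −0.40 to 0.26, edgeR adjusted p = 0.875), and it was 0.004 without M49 and 0.003 without M56, so no direction can be given. Nr1d1 stood at 0.143 to 0.410 of the CPM of Nr1d2 in the formoterol libraries and at 0.406 to 0.693 in the vehicle libraries, with M49 (0.410) just above M58 (0.406).

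Cry1 (ENSMUSG00000020038; mm39 chromosome 10, 84967564 to 85020928, minus strand) encodes a cryptochrome, the strongest repressor of CLOCK and ARNTL, and is itself a known target of REV-ERB alpha. M46 to M50 had 6.92, 10.3, 9.99, 4.92 and 8.59 CPM, and M56, M58, M59 and M60 had 3.38, 7.32, 3.61 and 4.86 CPM. Every formoterol library was above 3 of the 4 vehicle libraries, while vehicle library M58 exceeded M46 and M49. Its log2 fold change was 0.78 (SE 0.29, 95% interval 0.16 to 1.39, edgeR adjusted p = 0.236, DESeq2 adjusted p = 0.128). It was positive without any 1 library (0.64 to 1.04, edgeR adjusted p from 0.055 to 0.557). Limma-voom with sample quality weights called Cry1 and Nr1d1 (adjusted p = 0.0131 and 0.00281), where it called 10.8% of all genes.

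**Figure D2:**
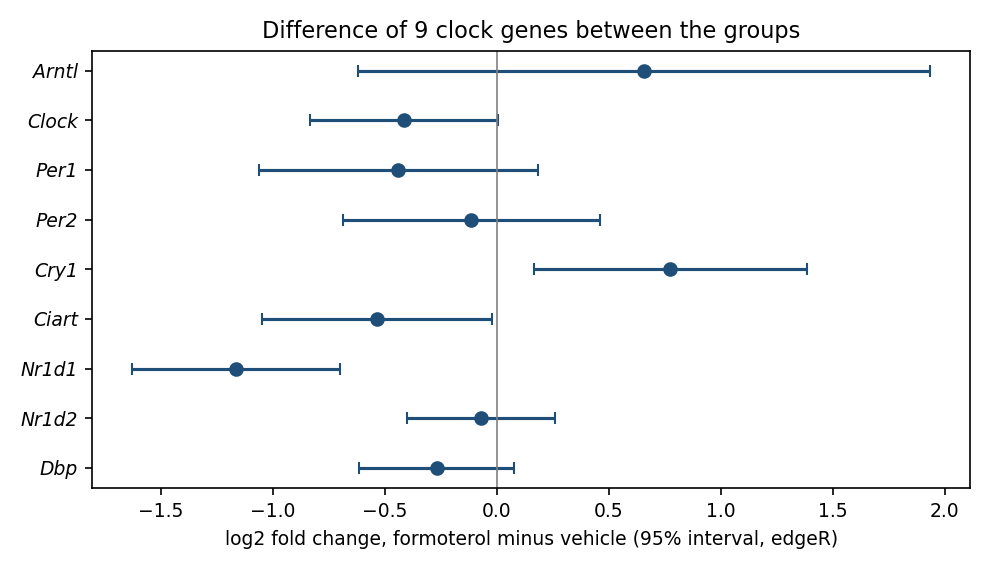
Log2 fold change of each clock gene (x axis, formoterol minus vehicle, edgeR; points with 95% intervals from 5 formoterol and 4 vehicle libraries); the vertical line marks no difference. The intervals of Nr1d1 (−1.63 to −0.70), Ciart (−1.05 to −0.023) and Cry1 (0.16 to 1.39) lie to 1 side of the line before any adjustment for multiple tests, and that of Arntl is the widest.

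The positive arm of the loop was measured at different precision. Clock (ENSMUSG00000029238; mm39 chromosome 5, 76357715 to 76452639, minus strand), which encodes the histone-acetylating partner of ARNTL, had 13.0, 14.1, 10.1, 11.8 and 19.8 CPM in M46 to M50 and 18.8, 18.4, 21.3 and 14.8 CPM in M56, M58, M59 and M60. In 4 of the 5 formoterol libraries Clock was below every vehicle library, and M50 lay within the vehicle range. Its log2 fold change was −0.41 (SE 0.20, 95% interval −0.84 to 0.008, edgeR adjusted p = 0.355), and it ranged from −0.59 to −0.33 when 1 library was left out, with the lowest value without M50.

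Arntl (ENSMUSG00000055116; mm39 chromosome 7, 112806672 to 112913333, plus strand), the obligate partner of CLOCK, was the lowest of the 9, with 4 to 37 reads per library. M46 to M50 had 1.06, 0.354, 1.17, 1.80 and 1.06 CPM, and M56, M58, M59 and M60 had 1.28, 0.823, 0.488 and 0.211 CPM. The groups overlapped over most of their range. With few reads the log2 fold change of 0.66 had an SE of 0.60 and a 95% interval from −0.62 to 1.93 (edgeR adjusted p = 0.653), so that values well above and well below vehicle lie inside it. It was 1.14 without M56, 0.39 without M49 and 0.35 without M60, and 0.058 by limma-voom with sample quality weights. DESeq2 gave Arntl no adjusted p.

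An Arntl promoter window (chr7:113207261-113207560, plus strand) is shown because Arntl is the classic target of the REV-ERB receptors, of which Nr1d1 had separate groups here. It held 1 copy of TAGGTCA, in capitals, 30 bases after the start, and 2.61% of all windows held that motif.
Arntl: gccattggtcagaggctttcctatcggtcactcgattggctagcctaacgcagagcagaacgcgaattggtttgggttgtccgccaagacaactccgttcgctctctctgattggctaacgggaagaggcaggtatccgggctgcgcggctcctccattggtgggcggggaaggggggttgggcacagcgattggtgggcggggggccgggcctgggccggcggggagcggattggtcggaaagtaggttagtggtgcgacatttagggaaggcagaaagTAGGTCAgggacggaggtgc

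**Figure D3:**
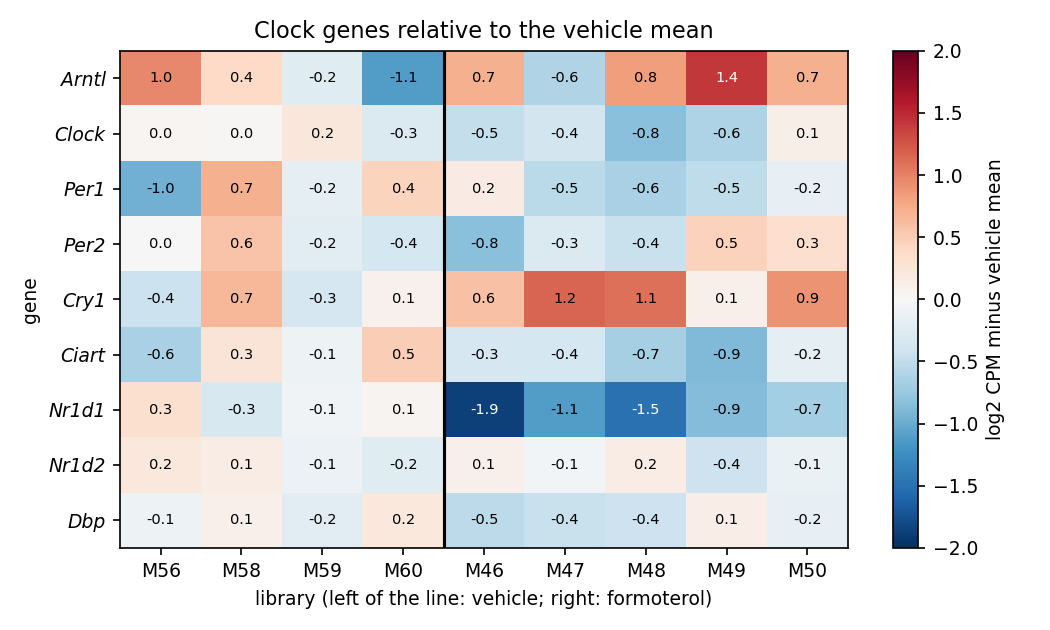
Log2 CPM of each clock gene (rows) in each library (columns; vehicle left of the line, formoterol right) minus the mean of the 4 vehicle libraries; red is higher and blue lower than that mean. The Nr1d1 and Ciart rows are blue in the 5 formoterol libraries (−1.86 to −0.68 and −0.89 to −0.19), and the Cry1 row is red there (0.10 to 1.16). Cry1 is also red in vehicle libraries M58 (0.67) and M60 (0.086). The Arntl, Clock, Per1, Per2, Nr1d2 and Dbp rows hold both colours in both groups.

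Among the repressors of the Per family, Per1 (ENSMUSG00000020893; mm39 chromosome 11, 68986043 to 69000786, plus strand) is also an immediate early gene that cyclic AMP and glucocorticoids can induce. It had 18.0, 10.9, 10.2, 11.2 and 14.2 CPM in M46 to M50, and 8.10, 26.3, 14.0 and 21.8 CPM in M56, M58, M59 and M60. The vehicle libraries held both the lowest and the highest value, and the formoterol libraries lay between them. For Per1 the log2 fold change was −0.44 (SE 0.29, 95% interval −1.06 to 0.18, edgeR adjusted p = 0.516), −0.68 without M56 and −0.18 without M58. That interval is the one of all 9 libraries, and without M58, the highest vehicle library, the unadjusted edgeR p was 0.541. No limit on a rise of Per1 is drawn from the interval.

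A Per1 promoter window (chr11:69099902-69100201, plus strand) is shown because formoterol acts through cyclic AMP. It held the shorter element TGACGT, in capitals, 132 bases before the start, and not the full TGACGTCA, and 7.51% of all windows held the shorter form.
Per1: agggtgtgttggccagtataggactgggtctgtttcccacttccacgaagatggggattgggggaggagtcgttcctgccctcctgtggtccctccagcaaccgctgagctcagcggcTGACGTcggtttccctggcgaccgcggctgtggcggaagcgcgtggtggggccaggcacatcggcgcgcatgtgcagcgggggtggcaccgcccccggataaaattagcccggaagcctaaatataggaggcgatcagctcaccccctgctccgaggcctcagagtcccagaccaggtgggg

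Per2 (ENSMUSG00000055866; mm39 chromosome 1, 91343704 to 91387046, minus strand), whose protein carries CRY into the nucleus, had 20.7, 30.5, 27.4, 51.4 and 47 CPM in M46 to M50 and 37.5, 55.6, 31.7 and 29.0 CPM in M56, M58, M59 and M60. Formoterol libraries M49 and M50 stood above 3 of the 4 vehicle libraries and M46 and M48 below all of them. The log2 fold change was −0.11 (SE 0.27, 95% interval −0.69 to 0.46, edgeR adjusted p = 0.884), 0.013 without M46 and 0.12 without M58, so that it has no settled direction. Per1 and Per2 were ordered differently over the libraries, and M46 had the highest Per1 and the lowest Per2 of the formoterol group.

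Ciart (ENSMUSG00000038550; mm39 chromosome 3, 95785815 to 95789563, minus strand) encodes CHRONO, a repressor that binds ARNTL. M46 to M50 had 7.97, 7.87, 6.36, 5.41 and 8.82 CPM, and M56, M58, M59 and M60 had 6.41, 12.1, 9.37 and 14.3 CPM. In 3 of the 4 vehicle libraries Ciart was above every formoterol library, and M56 lay inside the formoterol range. Ciart had a log2 fold change of −0.53 (SE 0.24, 95% interval −1.05 to −0.023, edgeR adjusted p = 0.321), −0.71 without M56 and −0.35 without M60. Its unadjusted p was under 0.05 without M46, M50, M56 or M59 and above it without any of the other 5 libraries. By limma-voom the unadjusted p of Ciart was 0.0625, and 0.118 with sample quality weights. Ciart lies wholly within the span of a long noncoding RNA on the other strand, C920021L13Rik, which had 10 to 38 reads per library.

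The Ciart and Cry1 windows are shown together because both repressors carry exact E-boxes while their differences between the groups had opposite signs. Ciart (chr3:95882179-95882478, minus strand) held 3 copies of CACGTG, a number reached by 0.0883% of all windows, and Cry1 (chr10:85185005-85185304, minus strand) held 1 copy and 1 variant E-box on the reverse strand. At least 1 copy of CACGTG stood in 7.15% of all windows, and the other window of the repressor Per1, not shown, also held 1. Capitals mark the E-boxes.
Ciart: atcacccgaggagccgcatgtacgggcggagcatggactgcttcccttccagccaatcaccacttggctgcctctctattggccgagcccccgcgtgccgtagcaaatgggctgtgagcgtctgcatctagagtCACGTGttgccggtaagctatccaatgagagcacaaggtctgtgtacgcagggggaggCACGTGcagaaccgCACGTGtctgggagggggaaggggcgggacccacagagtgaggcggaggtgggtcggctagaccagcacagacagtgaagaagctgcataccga
Cry1: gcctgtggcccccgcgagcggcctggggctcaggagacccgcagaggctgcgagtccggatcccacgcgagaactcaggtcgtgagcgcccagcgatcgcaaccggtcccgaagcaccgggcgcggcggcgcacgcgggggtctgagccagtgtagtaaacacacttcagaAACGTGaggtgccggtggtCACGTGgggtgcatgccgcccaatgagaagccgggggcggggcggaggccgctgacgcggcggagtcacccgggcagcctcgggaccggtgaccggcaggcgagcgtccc

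Dbp (ENSMUSG00000059824; mm39 chromosome 7, 45354512 to 45359627, plus strand), a D-box binding activator that carries the rhythm to metabolic genes, had 55.2, 58.1, 59.1, 87.0 and 70.4 CPM in M46 to M50 and 73.7, 84.9, 68.0 and 91.4 CPM in M56, M58, M59 and M60. M46, M47 and M48 were below every vehicle library, and M49 was above 3 of the 4. The log2 fold change was −0.27 (SE 0.16, 95% interval −0.62 to 0.078, edgeR adjusted p = 0.471), and −0.39 without M49 (edgeR adjusted p = 0.124). Dbp overlaps Sphk2 on the opposite strand by 737 bp, and Sphk2 had 17.2 ± 3.71 against 19.0 ± 2.49 CPM. Relative to Nr1d1, Dbp stood 2.46- to 4.40-fold higher in formoterol libraries and 1.28- to 2.30-fold higher in vehicle libraries, on the CPM scale and without overlap. Nr1d1, whose own groups are separate, is the denominator of that ratio.

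Levels of different genes were compared per length, as CPM per kb of the gene length given in the table. The order over all 9 libraries was Dbp (24.0 CPM per kb), Nr1d2 (14.9), Nr1d1 (10.5), Per2 (6.28), Ciart (3.86), Per1 (2.66), Cry1 (1.99), Clock (1.15) and Arntl (0.122). Of the 8 neighbouring pairs in that order, 2 had separate ranges over all 9 libraries, Dbp above Nr1d2 and Clock above Arntl. In vehicle livers Nr1d2 and Nr1d1 stood at nearly equal levels per length (15.3 ± 2.25 and 15.1 ± 2.80 CPM per kb), and Nr1d2 was the higher in 1 of 4 libraries. In formoterol livers Nr1d2 was the higher in 5 of 5 (14.6 ± 2.17 against 6.74 ± 2.12). Cry1 was above Clock in 2 of 4 vehicle and in 5 of 5 formoterol libraries, and below Per1 in 4 of 4 vehicle and in 2 of 5 formoterol libraries.

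Clock genes also varied among mice of a group. The SD of log2 CPM around the group means was 0.81 for Arntl, 0.55 for Per1, 0.49 for Per2, 0.46 for Cry1, 0.40 for Nr1d1, 0.39 for Ciart, 0.30 for Clock, 0.24 for Dbp and 0.22 for Nr1d2, and its median over all genes tested was 0.36. Thus 6 of the 9 lay above the median, with Arntl, which has few reads, at the 88.1th percentile and Nr1d2 at the 18.2th. The difference in Nr1d1 between the groups is nearly 3 of its within-group SDs, and those of Per1 and Per2 are less than 1.

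Of the 36 pairs of clock genes, none was correlated past an adjusted p of 0.05 over the 9 libraries, pooled or with group means removed (exact permutation, Benjamini-Hochberg over 36 pairs). At an unadjusted p under 0.05 with group means removed there was 1 pair, Per1 with Ciart. Over the 9 libraries this pair had Pearson r 0.84 (exact permutation p = 0.00506, adjusted p = 0.182) and Spearman rho 0.80 (exact permutation p = 0.0138, adjusted p = 0.31), and r was 0.82 without the 2 libraries farthest from the median of Per1. With group means removed r was 0.85 (exact permutation p = 0.0246, adjusted p = 0.644) and rho 0.75 (exact permutation p = 0.0493, adjusted p = 0.861). M58 and M60 were high and M56 was low in both genes.

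The genes whose log2 CPM followed a clock gene most closely over the 9 libraries were taken from 10970 protein-coding (10971 for Arntl) genes with a mean of at least 1 CPM, as a description that depth and the group difference can shape. Nr1d1 was most alike Hyal1 (r 0.96), Scarf2 (0.96), Snx30 (0.95) and Ntrk2 (0.95), and most opposite to Auh (−0.98) and Psme1 (−0.98). For Dbp the closest were E130309D02Rik (0.99), Cenpt (0.95), Csnk1g1 (0.94) and Deaf1 (0.93), with Hao1 (−0.97) and Tbc1d30 (−0.97) opposite. For Arntl they were Zfp959 (0.90), Ankrd49 (0.89), Xk (0.89) and Srd5a2 (0.89), with Pak2 (−0.96) and Herc3 (−0.90) opposite. No clock gene was among the named neighbours of another. The clock gene nearest to Nr1d1 was Clock (r 0.70, rank 1392), and the one nearest to Dbp was Nr1d1 (r 0.69, rank 1019). Nearest to Arntl was Per2 (r 0.34, rank 1282). Ranks run from the most alike gene. The most opposite clock gene was Cry1 for Nr1d1 (−0.71, rank 9496) and for Dbp (−0.48, rank 8541), and Ciart for Arntl (−0.75, rank 10935).

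Beyond the 9 genes, 24 other clock components were listed, of which 21 were tested. Npas2, the paralog that can replace CLOCK, and Arntl2 were among the 3 too low to test. None passed edgeR over all genes, and at an unadjusted p under 0.05 there were 2 higher and 2 lower ones (9.03% and 5.53% of all genes), with a median log2 fold change of −0.12. The lower ones were Bhlhe40, a repressor that competes at E-boxes (46.7 ± 13.1 against 69.0 ± 7.80 CPM, log2 fold change −0.56, edgeR adjusted p = 0.212), and Csnk1d, a kinase that primes PER for breakdown (18.0 ± 3.74 against 23.9 ± 2.81, −0.40). Bhlhe40 was called without M49 (−0.68, edgeR adjusted p = 0.0428). Cry2, the second cryptochrome, had 11.2 ± 2.86 against 14.4 ± 1.39 CPM (−0.36, adjusted p = 0.425), a sign opposite to that of Cry1, and neither passed the test.

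Liver genes known for a daily rhythm downstream of the loop numbered 23, all tested. At an unadjusted p under 0.05 there were 6 higher and 3 lower ones, 39.1% against 14.6% of all genes. Because the list was chosen with earlier results of these data known, the 39.1% is not independent evidence. By edgeR 0 passed, while DESeq2 called 2 higher and 2 lower (2.79% of all genes with an adjusted p). The list mixes genes of different peak hours, so its directions do not add up to 1 phase. Upp2, a uridine phosphorylase, had 464 ± 180 against 217 ± 45.1 CPM (log2 fold change 1.09, edgeR adjusted p = 0.159), and M49 at 225 CPM lay inside the vehicle range. Tspan4, a tetraspanin, had 35.6 ± 12.7 against 18.7 ± 1.59 (0.92, adjusted p = 0.159), and its groups did not overlap, as in 2.45% of all genes with formoterol higher. Avpr1a, the hepatic vasopressin receptor, had 8.53 ± 3.79 against 4.07 ± 0.846 CPM (1.05, adjusted p = 0.191). Insig2, a brake on sterol synthesis whose rhythm depends on REV-ERB alpha, had 81.8 ± 13.2 against 120.5 ± 13.2 CPM (−0.56, adjusted p = 0.172). Its groups did not overlap, as in 2.38% of all genes with formoterol lower. Mfsd2a, a lysolipid transporter, had 64.9 ± 26.7 against 120.7 ± 25.1 (−0.89, adjusted p = 0.173). Wee1, a kinase driven by E-boxes and named here because it completes the 3 lower ones, had 5.54 ± 0.841 against 8.72 ± 1.60 (−0.66, adjusted p = 0.195), without overlap. The other 3 of the 6 higher ones, named here after their values were seen, were Cyp7a1, the rate-limiting enzyme of bile acid synthesis (95.6 ± 20.2 against 66.6 ± 16.5 CPM, 0.52), Por, the electron donor of cytochromes P450 (201.6 ± 70.9 against 116.4 ± 39.4, 0.79), and Nampt, the rate-limiting enzyme of NAD salvage (85.0 ± 20.4 against 60.5 ± 3.56, 0.49). None of the 3 passed (edgeR adjusted p from 0.223 to 0.242). Without M49 edgeR called Upp2, Tspan4, Avpr1a, Mfsd2a, Por and Nampt of these 9 (adjusted p from 0.00235 to 0.0473), and Insig2 (0.0526), Cyp7a1 (0.08) and Wee1 (0.116) missed. Of all genes 5.51% were called without M49, and these 9 had been picked by their unadjusted p in the same libraries.

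Signals that can reset the liver clock were read from further lists. Of 11 tested genes of the cyclic AMP and CREB response, Per1 included, 0 passed edgeR and 0 reached an unadjusted p under 0.05 in either direction (14.6% of all genes), with a median log2 fold change of −0.38. Crem, whose short product ICER ends the response, had 12.7 ± 0.896 against 10.1 ± 0.917 CPM (0.33, edgeR adjusted p = 0.347) with groups that did not overlap. The count of the list was 1 under several other settings, not always for the same gene. The gene was Crem with RLE size factors, a minimum count of 30, DESeq2, limma-voom, quality weights, no robust estimation, or without M50 or M58. It was Junb without M47 and Per1 without M56, both lower (log2 fold changes −0.54 and −0.68). Without a filter on low counts it was not Crem. With library totals the count was 2, Junb and Per1, both lower (−0.54 and −0.59). Junb, Sik1 and Fos had log2 fold changes of −0.38, −0.44 and −0.84, none past the test, and Fos had 0.764 ± 0.509 against 1.37 ± 0.380 CPM. Of 10 tested glucocorticoid-responsive genes, Per1 included, at an unadjusted p under 0.05 there were 2 higher and 0 lower ones. Of all genes 9.03% were higher and 5.53% lower at that level. The count of the list was 1 to 3 with 1 library left out, and the list was chosen with earlier results of these data known. Tsc22d3, the glucocorticoid-induced leucine zipper, had 73.9 ± 13.5 against 51.3 ± 8.35 CPM (0.53, edgeR adjusted p = 0.194, and 0.0395 without M49), and Nr3c1, the receptor itself, 62.6 ± 12.3 against 48.9 ± 4.98 (0.36, adjusted p = 0.325). Of 9 tested temperature-responsive genes 3 had a positive and 6 a negative log2 fold change, and 1 reached an unadjusted p under 0.05, near the 14.6% of all genes. It was Hsph1, a heat shock co-chaperone (10.015 ± 0.916 against 13.3 ± 1.88, −0.40, adjusted p = 0.28), and the cold-induced Cirbp had 0.21 (adjusted p = 0.702). In each of these lists edgeR called 0 genes over all genes tested.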

How the data were processed

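Poly(A) RNA-seq of 9 mouse liver libraries was used. Gene-level counts came in 1 deposited table, as whole numbers without normalization. The table also gives a gene length in bp, an other column that was used only for levels per length and that the authors deposited. Reads were aligned with HISAT2 2.0.5 to mm39, per the submitters' processing notes, which also name DESeq2. Counting program, strand setting and annotation: not given in the sources used here. Libraries were taken as 1 mouse each, because the group sizes are stated in mice; no label ties a column to an animal, and if that reading fails the p-values reflect technical spread only.

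Genes were kept with edgeR's filterByExpr (minimum count 10, minimum total 15; 13042 of 56748 genes, 24041 with any count) and compared with edgeR 4.0.16 in R 4.3.3 (TMM factors, robust quasi-likelihood test, Benjamini-Hochberg over all tested genes, threshold 0.05). CPM are TMM-normalised and given as mean ± SD. Standard errors are the log2 fold change divided by the root of F, and 95% intervals use the test's degrees of freedom. Log2 CPM used a prior count of 2. DESeq2 1.42.0 and limma 3.58.1 were alternatives. The test was tested on simulated data. Members and lists were chosen with earlier results of these data known. Named were the 9 members, up to 5 genes of smallest p per list, and for Arntl, Nr1d1 and Dbp the 4 most alike and 2 most opposite genes by Pearson r; exceptions are marked, and not all named genes are printed. Some genes of the list of other clock components are not reported here. One listed name, Gm129, is an older symbol of Ciart and was dropped, and Tars1 was matched as Tars.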

Additional observations from a re-analysis of the deposited data

How the results depend on the processing

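The 9 clock genes and 28 other genes were recomputed under 18 alternatives, which gave 662 log2 fold changes where the gene was tested. Of these 621 kept their direction and their side of the threshold, 37 passed the threshold in the same direction, and 4 changed sign: Per2 without M46 (0.013) and without M58 (0.12; range over left-out libraries −0.29 to 0.12), and Nr1d2 without M49 (0.0041) and without M56 (0.0030; range −0.14 to 0.0041). Among the 621, values to which DESeq2 gave no adjusted p, that of Arntl included, were counted as not past the threshold. The size of a change was not counted, and Arntl went from 0.66 to 0.058 by limma-voom with sample quality weights. No scaling changed the sign of a clock gene. Library totals alone moved the median of all genes by −0.15 on the log2 scale and gave, at an unadjusted p under 0.05, 467 genes with higher and 1292 with lower values, against 1178 and 721 with TMM and 991 and 881 with upper-quartile factors.

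Genes called numbered 0 with edgeR, 263 without a filter on low counts, 314 with DESeq2, 1410 with limma-voom and sample quality weights, and 0 to 702 with 1 library left out (702 without M49, 4 without M60). At an unadjusted p under 0.05 there were 1899, 3124 without a filter, 3699 with quality weights, and 1203 (without M56) to 2981 (without M49) with 1 library left out. Clock genes called numbered 0, 1 without a filter (Nr1d1), 1 with DESeq2, 2 with quality weights, and 0 to 1 with 1 library left out. At an unadjusted p under 0.05 they numbered 3, 5 with library totals, and 2 to 4 with 1 library left out. At the same level other clock components numbered 4, and 2 to 6 with 1 library left out. Temperature-responsive genes numbered 1, 2 with library totals, 3 with quality weights, and 0 to 2 with 1 library left out. Glucocorticoid-responsive genes numbered 2, 1 with upper-quartile factors, 1 with limma-voom, and 1 to 3 with 1 library left out. Genes of the cyclic AMP list numbered 0, 2 with library totals, 0 to 1 with 1 library left out, and 1 with RLE size factors, without a filter, with a minimum count of 30, with DESeq2, with limma-voom, with quality weights and without robust estimation. The causes of these changes were not tested.

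No paired analysis was possible because the columns carry no replicate number of the labels. Depth limits Arntl most, at 4 to 37 reads per library. A prior count of 0.5 moved the within-group SD of each clock gene by less than that SD, a wide limit that does not show these SDs to be stable. No pair of clock genes passed adjustment with library-total CPM either. Of the 18 groups of 4 or 5 values of the clock genes, none held a library far from the rest by Dixon's criterion.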
